A study of Mus musculus with 3 samples.

Results

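The loci of 10 genes of intestinal stem and progenitor cells (Lgr5, Ascl2, Olfm4, Axin2, Sox9, Myc, Ccnd1, Ephb2, Cd44 and Prom1) were examined in ATAC-seq peak lists of the mouse fetal gut. A locus was the gene body plus 50 kb on each side, distances were taken from the 5′-most annotated start site to the middle of a region, and the genes were taken by name. All 10 genes were placed, out of 21631 protein-coding genes on the autosomes and the X chromosome. Overlapping peaks of the 3 libraries were merged into regions, and 39 of the 33564 regions of the series overlapped a locus. ATAC-seq uses the transposase Tn5 to insert adapters into accessible DNA. The libraries were made from epithelial cells of the small intestine of embryos at E16.5, selected with magnetic beads against EpCAM, with 20000 cells and 75 bp reads per library. The control group is 1 library with the genotype Hnf4gCrispr/+, which means that 1 copy of Hnf4g carries the mutation; no Cre and no floxed allele is named for it. The double knockout (DKO) group is 2 libraries, called DKO 1 and DKO 2 here after their replicate numbers, of the genotype Shh-Cre; Hnf4af/f; Hnf4gCrispr/Crispr, in which the Shh-driven Cre acts in gut epithelium on both Hnf4a alleles and both Hnf4g copies are mutated. The labels do not say whether embryos were pooled, or that the DKO libraries came from separate embryos. The series asks which accessible chromatin depends on HNF4A and HNF4G, paired nuclear receptors that drive enterocyte genes.

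Stem and progenitor cells at the base of intestinal villi and crypts divide under Wnt signalling. Wnt ligands act through Frizzled and LRP receptors, LGR5 binds R-spondins that strengthen the signal, and beta-catenin then enters the nucleus and joins TCF/LEF factors at target genes. Axin2, Lgr5, Ascl2, Sox9, Myc, Ccnd1, Ephb2 and Cd44 are known targets of this pathway in the gut, Olfm4 marks crypt stem cells and depends on Notch, and Prom1 encodes a membrane protein of stem and progenitor cells. In the fetal gut before birth, dividing progenitors lie between the villi.

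Promoter sequences are shown for 4 members that cover the patterns described below: Axin2, with a start-site peak in every library, Prom1, with a start-site peak in DKO 1, and Olfm4 and Cd44, with none. Each is the 250 bases before the start site, 5′ to 3′ on the gene's strand, from RefSeq on GRCm38.p6 (Axin2 chr11:108920099-108920348 plus strand, Prom1 chr5:44101737-44101986 minus strand, Olfm4 chr14:80000052-80000301 plus strand, Cd44 chr2:102901666-102901915 minus strand). Capitals mark matches to any of the motifs searched.
Axin2: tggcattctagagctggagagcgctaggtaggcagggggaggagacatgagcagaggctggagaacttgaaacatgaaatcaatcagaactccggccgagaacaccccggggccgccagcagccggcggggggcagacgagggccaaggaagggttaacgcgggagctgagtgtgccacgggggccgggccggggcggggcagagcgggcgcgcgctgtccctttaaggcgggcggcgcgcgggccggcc
Prom1: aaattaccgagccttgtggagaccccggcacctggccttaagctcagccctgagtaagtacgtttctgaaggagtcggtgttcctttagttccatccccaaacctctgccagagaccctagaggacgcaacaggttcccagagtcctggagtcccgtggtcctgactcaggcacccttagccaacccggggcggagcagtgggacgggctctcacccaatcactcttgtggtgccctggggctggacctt
Olfm4: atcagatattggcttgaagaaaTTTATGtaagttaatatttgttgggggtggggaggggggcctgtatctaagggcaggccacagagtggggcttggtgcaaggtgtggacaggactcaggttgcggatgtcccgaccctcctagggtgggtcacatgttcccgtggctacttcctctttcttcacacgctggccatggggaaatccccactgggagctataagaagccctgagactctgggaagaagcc
Cd44: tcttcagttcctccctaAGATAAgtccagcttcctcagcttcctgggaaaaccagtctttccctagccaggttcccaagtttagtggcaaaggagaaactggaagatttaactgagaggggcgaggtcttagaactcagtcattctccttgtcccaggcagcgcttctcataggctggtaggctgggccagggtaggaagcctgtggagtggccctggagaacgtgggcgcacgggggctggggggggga

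The motifs were searched on both strands: TCF/LEF as CTTTGAA or CTTTGAT, HNF4 as CAAAGTCCA or CAAAGTTCA, CDX as TTTATG and GATA as AGATAA. The TCF/LEF and HNF4 letters share the run CAAAG on one of their strands. Of 32851 promoters of this length, 7.48% held the TCF/LEF letters, 0.715% the HNF4 letters, 10.8% the CDX letters and 9.99% the GATA letters. Among the members, entries were found for Ascl2, Olfm4, Axin2, Ephb2, Cd44 and Prom1 (6 of 10), and not for Lgr5, Sox9, Myc and Ccnd1. Olfm4 held 1 CDX match, 222 bases before the start site, and Cd44 held 1 GATA match, 227 bases before it. No TCF/LEF or HNF4 letters were found in these windows, which says only that those letters are not there. GC content was 69.2% with 24 CpG at Axin2, 68.4% with 20 at Ephb2 and 67.6% with 19 at Ascl2, against medians of 52.4% and 6 over all promoters. Prom1 (first start site, 59.2% and 9 CpG), Cd44 (56.4% and 5) and Olfm4 (54.0% and 4) were closer to those medians. The 3 GC-rich promoters thus included 1 with a peak in every library (Axin2) and 2 with no peak within 500 bp of the start site in any library (Ephb2 and Ascl2). At Ascl2, however, a region called in all 3 libraries came within 660 bp of the start site, just past that limit.

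Each list gives a peak as a 601 bp window with a whole-number score whose meaning is not stated, so scores were turned into percentile ranks within a library (100 is the highest). The lists differed in length, with 16977 peaks in the control, 18268 in DKO 1 and 26648 in DKO 2, and sequencing depth is unknown. A locus without a peak is one with no call, and may still be accessible. At Hnf4a a peak near a start site was called in all 3 libraries, which does not check the deletion of a floxed exon. Of the epithelial markers, 3, 6 and 5 of 7 had a start-site peak in the control and DKO 1 and DKO 2. Those are 42.9%, 85.7% and 71.4%, against 40.4%, 46.4% and 47.9% of all protein-coding genes. The control share was thus near that of all genes. Epcam itself was called in each library, at ranks of 65.7, 66.0 and 76.9. Its DKO 1 peak overlapped neither the control peak nor the DKO 2 peak. Of the mesenchymal markers, 0, 2 and 1 of 6 had one (Vim in both DKO libraries, Acta2 in DKO 1), of the neuronal and glial markers 0, 1 and 1 of 5, and of the blood and endothelial markers 0 of 4 in every library. The part of such cells in the results below was not tested.

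More peaks were called in both DKO libraries than in the control at 6 of the 10 loci (Lgr5, Axin2, Sox9, Myc, Ephb2 and Cd44), as at 28.7% of the loci of all protein-coding genes, and fewer in both at 1 (Ccnd1), as at 8.3%. This tally, added after the data were seen, depended on the length of the peak lists. With the 16977 top-scoring peaks of each library, 3 loci had more in both DKO libraries (Lgr5, Ephb2 and Cd44, against 16.9% of all genes) and 3 had fewer (Ascl2, Ccnd1 and Prom1, against 16.9%). The control had 17 peaks there (0.100% of its list, Wilson 95% interval 0.0625 to 0.160%), DKO 1 had 22 (0.120%, 0.0795 to 0.182%) and DKO 2 had 27 (0.101%, 0.0696 to 0.147%). These intervals overlap and cover counting error over peaks only. A member's locus held a median of 1 peak in the control and 2 in each DKO library, against a median of 2 in every library over 19681 protein-coding genes. Control peaks numbered 6 at Prom1, 3 at Axin2, 2 at Myc and Ccnd1, 1 at Ascl2, Olfm4, Ephb2 and Cd44, and 0 at Lgr5 and Sox9. DKO 1 and DKO 2 had 2 and 2 peaks at Lgr5 and 1 and 2 at Sox9, the loci with no control peak. At Olfm4, DKO 1 had no peak, and the control and DKO 2 had 1 each at different places.

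**Figure D1:**
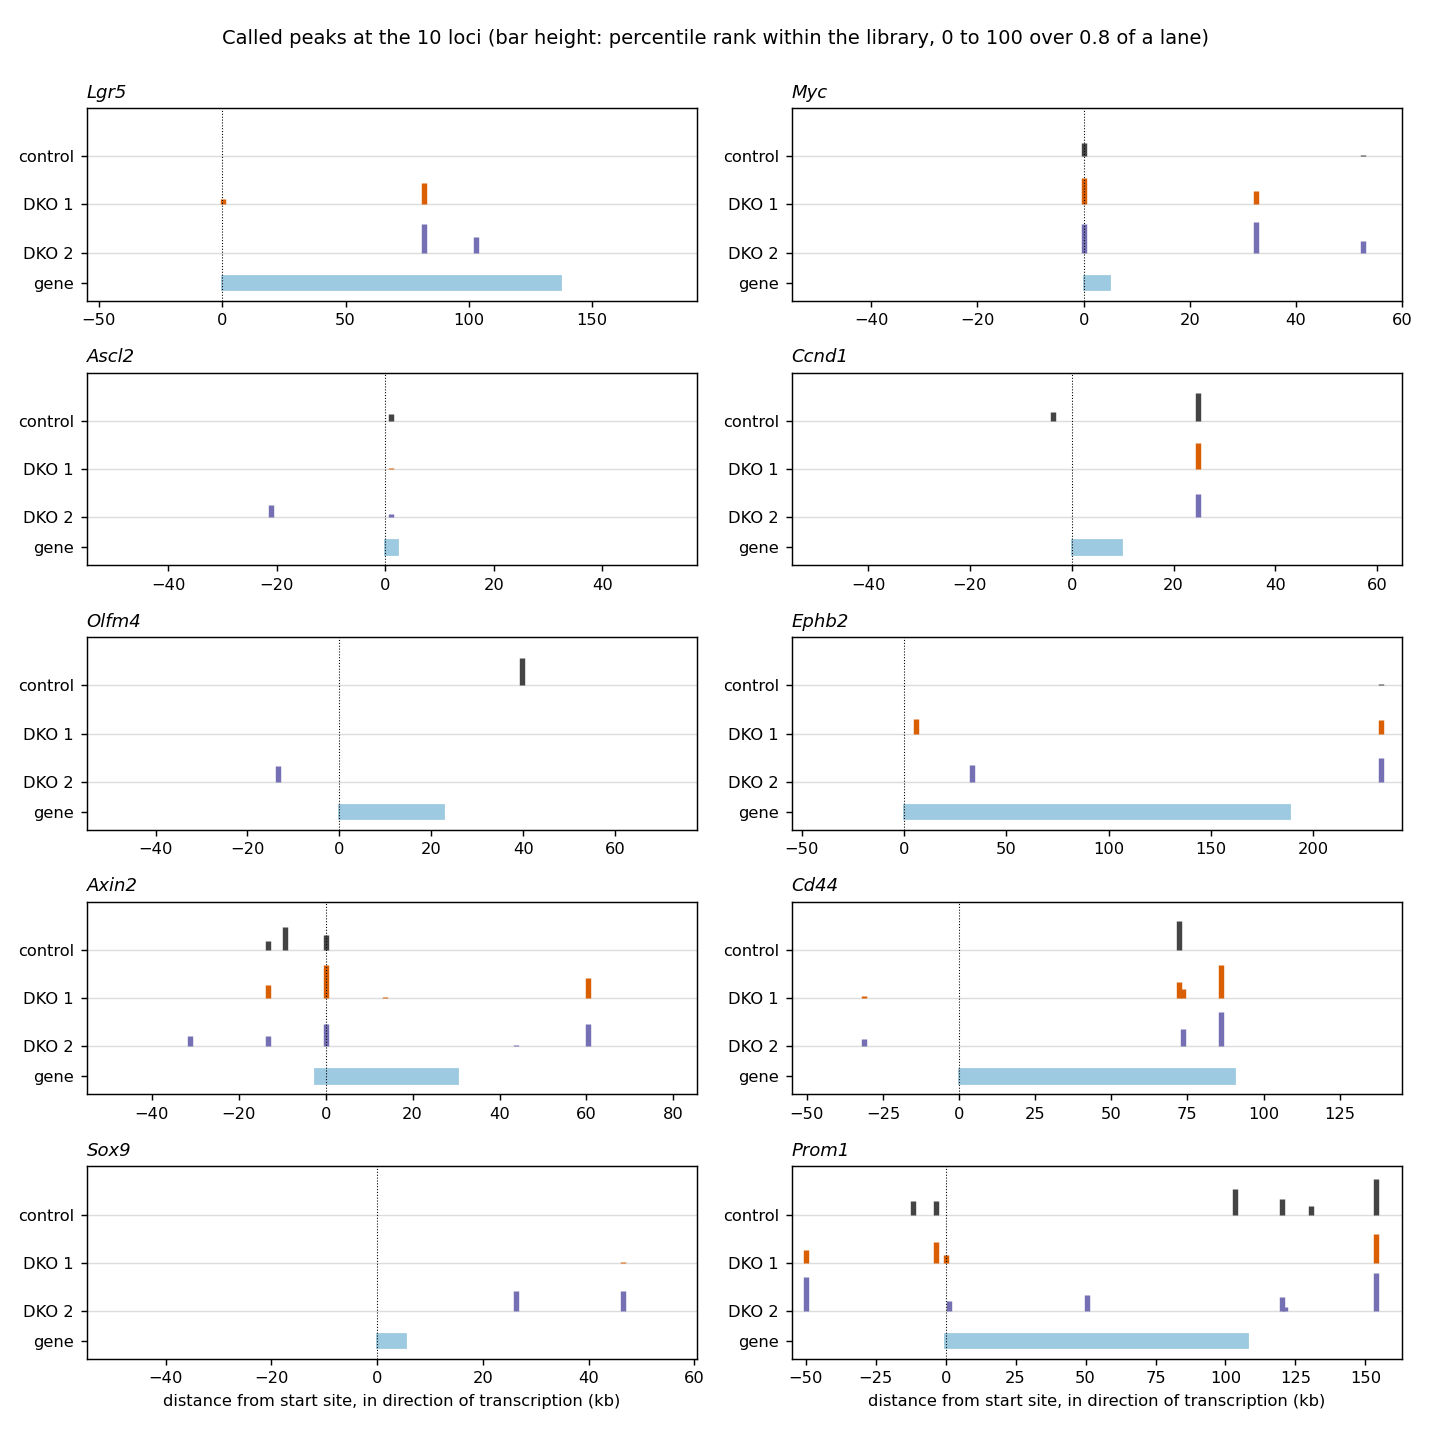
Map of the called peaks at the 10 loci, with distance from each gene's start site in kb on the x axis, 1 lane per library and the gene body in blue; bar height is the percentile rank of the peak within its library. Lgr5 and Sox9 have bars in the DKO lanes and none in the control lane, and Prom1 has the most bars, 6, 4 and 6 in the control and DKO 1 and DKO 2.

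Of the 39 regions, 8 were called in all 3 libraries (20.5%, Wilson 95% interval 10.8 to 35.5%, against 30.9% of all regions). A further 6 were called in the control alone (15.4%, 7.25 to 29.7%, against 13.0%), and 8 in both DKO libraries and not the control (20.5%, 10.8 to 35.5%, against 16.0%). At the full list lengths the background lies inside each interval, and no difference from all regions is claimed. The intervals treat regions as independent, although Prom1 held 11 of the 39 and Axin2 held 7. Prom1 supplied 3 of the 6 control-only regions, and Cd44 supplied 3 of the 8 called in both DKO libraries only. A single DKO library accounted for 14 regions (35.9%, against 33.4% of all regions), 10 in DKO 2 and 4 in DKO 1. The order of the single-genotype classes depended on list length. With the 16977 top-scoring peaks of each library, 9 of 32 regions were control-only (20.7% of all regions). Of the rest, 6 were called in both DKO libraries only (13.2%) and 5 in all 3 (34.3%). The members' share called in all 3 libraries was below that of all regions at both lengths, which was not tested. Intervals are given for the full lists only. By position, 16 regions lay in a member's gene body, 10 in the upstream flank and 13 in the downstream flank.

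**Figure D2:**
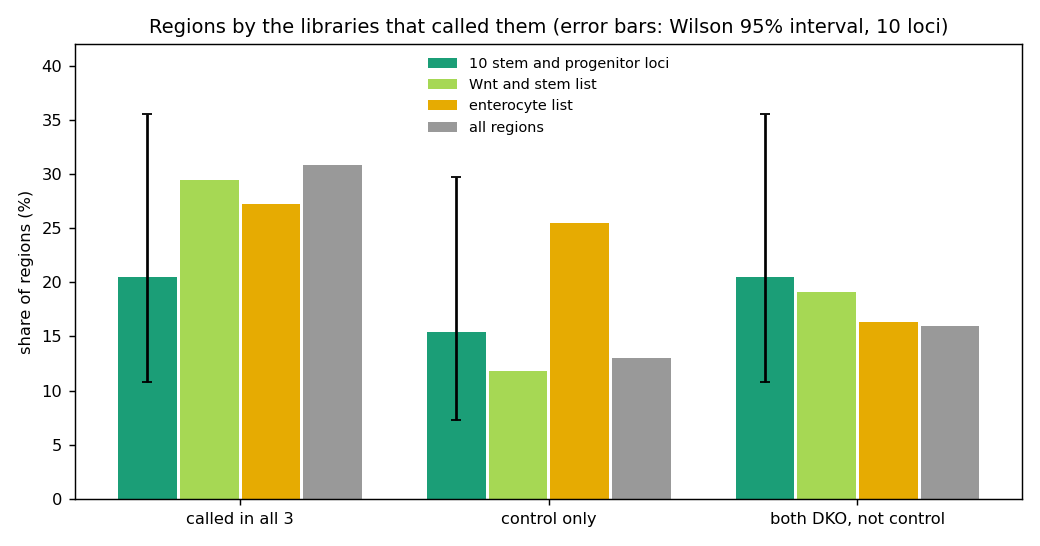
Share of regions (y axis, %) called in all 3 libraries, in the control alone, or in both DKO libraries and not the control, at the 10 loci, at the other 2 gene lists and over all regions; error bars are Wilson 95% intervals for the 10 loci. At the full list lengths shown, each interval of the 10 loci spans the value over all regions, while the enterocyte list has 25.5% control-only regions against 13.0% of all regions.

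A peak within 500 bp of a start site was called for 2 of the 10 genes in the control, 4 in DKO 1 and 2 in DKO 2. Over 16060 protein-coding genes the shares were 40.4%, 46.4% and 47.9%, so start-site peaks were called for a smaller share of the members than of all genes in each library. Axin2 and Myc had one in all 3 libraries, as 36.4% of genes did. Lgr5 and Prom1 had one in DKO 1 alone, as 2.22% of genes did. Ascl2, Olfm4, Sox9, Ccnd1, Ephb2 and Cd44 had none in any library, as 47.5% of genes did. Within 1 kb of a start site the counts were 3 in the control, 5 in DKO 1 and 4 in DKO 2, with Ascl2 among them in each library. No share over all genes is given at that distance, so the rise cannot be set against the background. With 10 genes these counts carry no test.

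Among the Wnt components and targets, Axin2, which encodes a scaffold of the beta-catenin destruction complex and is a feedback inhibitor of the pathway, had 7 regions. Its start-site region, on chromosome 11 from 108781340 to 108782061, overlaps the promoter printed above after the shift between builds. Its scores were 19 in the control, 43 in DKO 1 and 24 in DKO 2, at ranks of 40.3, 85.7 and 57.7. The control was lowest, 31.4 points below the DKO mean, but the DKO replicates were themselves 27.9 points apart. With equal list lengths the ranks were 40.3, 84.6 and 33.6, and the control then lay between the DKO replicates, so the lower control rank does not hold. A region 13.3 kb upstream was also called in all 3 libraries, weakly, at ranks of 22.8, 34.0 and 25.4. Between these, 9.36 kb upstream, lay a control-only region at rank 58.8, next to a start site of the transcript Gm46298, with the nearest DKO peaks 3336 and 3302 bp away. On the other side, 60.4 kb downstream of the start site and beyond the gene, at a start site of the transcript Gm36876, a region called in both DKO libraries ranked 52.6 and 57.7, 30505 bp from any control peak. The remaining 3 Axin2 regions were called in a single DKO library, at ranks from 1.86 to 25.4.

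Lgr5 encodes the R-spondin receptor that marks cycling intestinal stem cells. No control peak lay in its locus. A region in the gene body 81.9 kb from the start site, on chromosome 10 from 114942676 to 114943363, was called in DKO 1 (score 26, rank 55.7) and DKO 2 (score 31, rank 73.6). Control peaks came no closer than 109115 bp, and the region remained called in both DKO libraries and not the control with equal list lengths. DKO 1 also had a weak peak over the start site (score 16, rank 14.4), with the nearest DKO 2 peak 81139 bp away. DKO 2 had a peak 103 kb into the gene at rank 40.2. The start-site call was thus not repeated in the second DKO library.

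Ascl2 encodes a basic helix-loop-helix factor that sustains Lgr5-expressing stem cells. A region on chromosome 7 from 150153660 to 150154522, inside the gene and centred 1.09 kb past the start site, was called in all 3 libraries with low scores of 15 in the control and 13 in both DKO libraries. The ranks were 17.0, 2.57 and 8.99, the control 11.2 points above the DKO mean and the DKO replicates 6.41 points apart. These are among the weakest peaks of each list, and with equal list lengths the control peak alone was left. A peak 21.1 kb upstream was called in DKO 2 alone, at rank 30.8.

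Sox9 encodes a transcription factor of crypt base progenitors and Paneth cells. Its locus lacked control peaks, and the nearest control peak lay 81096 bp or more from either of its regions. A region 46.5 kb downstream of the start site, on chromosome 11 from 112689688 to 112690454, was called in both DKO libraries, at ranks of 2.57 and 51.4 and scores of 13 and 22. The rank gap between the replicates was wide, 48.8 points, and at equal list lengths a single DKO library kept the call. A second region, 26.3 kb downstream, was called in DKO 2 alone at rank 51.4.

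Myc encodes a transcription factor of growth and division. Its start-site region (chromosome 15, 61816353 to 61817259) scored 18 in the control and 31 in each DKO library. The ranks were 34.8 in the control, 68.1 in DKO 1 and 73.6 in DKO 2. The control was lower than both, by 36.1 points from their mean, and the DKO replicates were 5.50 points apart. With equal list lengths the ranks were 34.8, 65.7 and 58.6, a gap of 27.4 points against 7.09 points between the replicates. The control-DKO gap at the Myc start site was therefore larger than the replicate gap at both list lengths, with no replicate of the control. Of the 5849 genes with a start-site peak in all 3 libraries, 6.94% had a control rank at least as far below both DKO ranks as Myc, whose control lay 33.3 points below the nearer DKO library.

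Further regions of the Myc locus lay downstream. One, 32.4 kb from the start site on chromosome 15 from 61848890 to 61849520, was called in both DKO libraries (scores 20 and 35, ranks 34.0 and 79.8) and kept that class at equal list lengths. No control peak came within 19654 bp, and the rank gap between replicates was 45.7 points. The other, 52.7 kb downstream within Pvt1, the neighbouring long noncoding RNA gene, was called in all 3 libraries at ranks of 2.96, 2.57 and 30.8.

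Ccnd1 encodes cyclin D1, which starts the division cycle. Its strongest region in every library lay 24.8 kb downstream, on chromosome 7 from 152100559 to 152101461, at a start site of the neighbouring gene LTO1. The ranks there were 71.6 in the control, 68.1 in DKO 1 and 60.5 in DKO 2, a difference of 7.25 points between control and DKO mean and of 7.66 between the replicates. These values do not differ beyond the replicate gap. A control-only region 3.72 kb upstream of Ccnd1 was weak (score 16, rank 22.8), with the nearest DKO peaks 28024 and 27826 bp away. No library had a peak at the Ccnd1 start site.

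Among the members at the cell surface, Ephb2 encodes an ephrin receptor that positions crypt cells. Its locus had 1 region called in all libraries, at the start site of the neighbouring gene Kdm1a, on chromosome 4 from 136158180 to 136159088. There the scores were 12 in the control, 20 in DKO 1 and 25 in DKO 2, at ranks of 2.96, 34.0 and 60.5. The control was 44.3 points below the DKO mean and the replicates were 26.4 points apart. Inside Ephb2, DKO 1 had a peak 5.93 kb from the start site (rank 38.4) and DKO 2 a peak 33.4 kb from it (rank 44.1), neither called in another library. The accessible region that the control shared with the DKO libraries at this locus thus belongs by position to Kdm1a, not to Ephb2.

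Cd44 encodes the hyaluronan receptor, a marker of crypt progenitors. It had the strongest region of the 10 loci that both DKO libraries called and the control did not. That region lay in the gene body 86.1 kb from the start site (chromosome 2, 102655339 to 102655951). It scored 44 and 45, at ranks of 86.5 and 89.5, which are 2.99 points apart. No control peak came within 13312 bp, and the class was kept at equal list lengths and with gaps of up to 1 kb. A pair of neighbouring regions lay 72.2 and 73.5 kb into the gene. The first, from 102669263 to 102669885, was called in the control (score 29, rank 76.6) and in DKO 1 (rank 42.4). The second, from 102667991 to 102668591, was called in DKO 1 and DKO 2 (ranks 24.7 and 44.1). They are 672 bp apart, and with gaps of up to 1 kb they form 1 region called in all 3 libraries. A region 31.3 kb upstream of the gene was called weakly in both DKO libraries, at ranks of 5.61 and 19.8, and in none with equal list lengths.

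Prom1 encodes prominin 1, a pentaspan protein of membrane protrusions. It had 11 regions, the most of any member. The highest-ranked region of the 10 loci in the control and in DKO 2 lay in its downstream flank, on chromosome 5 from 44339178 to 44339805, 154 kb from the start site. Its scores were 42 in the control, 35 in DKO 1 and 69 in DKO 2, at ranks of 93.5, 75.6 and 97.9. The control lay between the DKO replicates, which were 22.3 points apart, so no difference beyond replicate error was seen. At the start site DKO 1 had a peak of rank 19.6, which overlaps the promoter printed above after the shift, and 494 bp further into the gene DKO 2 had one of rank 25.4. These 2 calls become 1 region of both DKO libraries with gaps of up to 1 kb, and the nearest control peaks were 3019 and 4113 bp away. A region 3.52 kb upstream was called in the control (rank 34.8) and DKO 1 (rank 52.6).

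The distal Prom1 regions went in both directions. Control-only regions lay 11.6 kb upstream (rank 34.8), 103 kb into the gene (score 25, rank 65.7) and 131 kb downstream of the start site (rank 22.8), and all 3 kept that class at equal list lengths. At the far upstream end, 49.8 kb from the start site on chromosome 5 from 44542602 to 44543209, a region was called in both DKO libraries at scores of 20 and 42 and ranks of 34.0 and 87.2. The nearest control peak there was 7982 bp away. A region near a start site of the neighbouring gene Fgfbp1 was called in the control (rank 40.3) and DKO 2 (rank 35.8).

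Olfm4 encodes a secreted glycoprotein of crypt stem cells. Its locus had 2 regions, each called in a single library. The control-only region lay 39.7 kb past the start site, beyond the gene, on chromosome 14 (80439509 to 80440109), where it scored 27 and ranked 71.6. It was the highest-ranked control-only region of the 10 loci, and the nearest DKO peaks were 268092 bp (replicate 1) and 52405 bp (replicate 2) away. The other lay 13.3 kb upstream and was called in DKO 2 at rank 40.2.

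**Figure D3:**
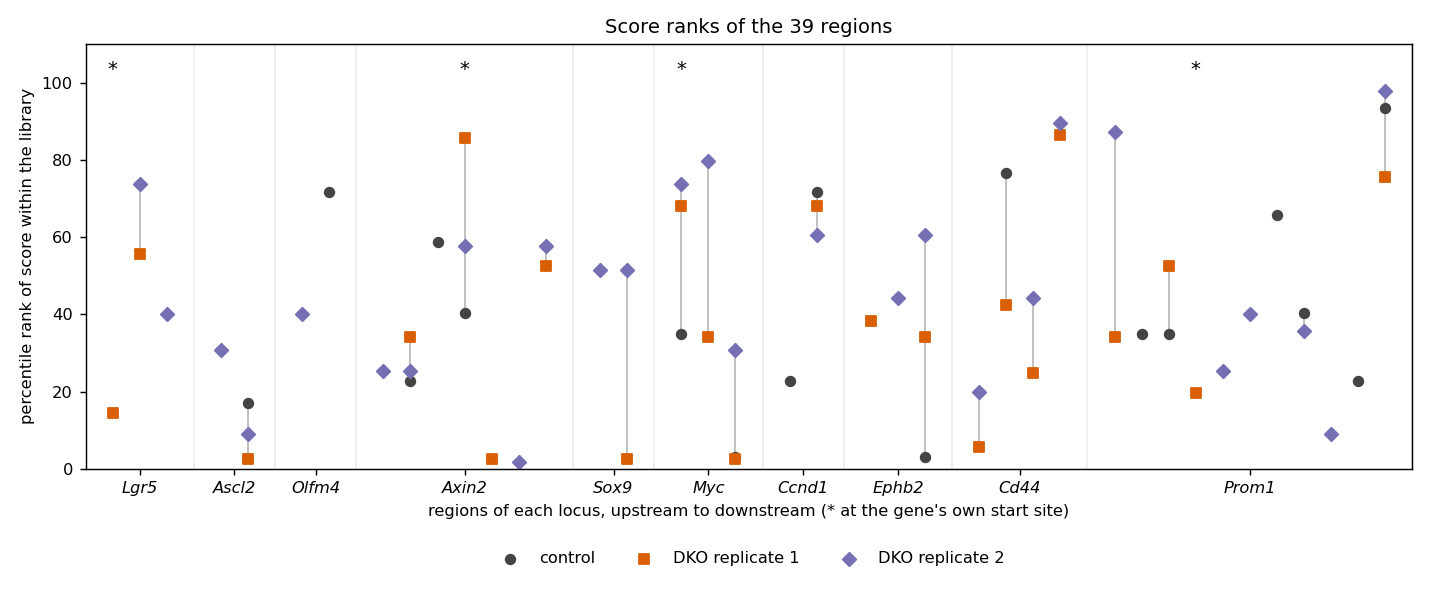
Percentile rank of the score within its library (y axis) for every region of each locus, ordered from upstream to downstream; circles are the control, squares DKO 1 and diamonds DKO 2, grey lines join libraries that share a region, and asterisks mark regions at the gene's own start site. At the Myc start site the circle (34.8) lies below both DKO symbols (68.1 and 73.6), at Axin2 the DKO symbols are far apart, and most regions have a single symbol or a pair.

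Over the 8 regions called in all 3 libraries, the control rank had a median of 28.8 against 51.1 and 59.1 in DKO 1 and DKO 2. The control minus the DKO mean ranged from -44.3 to 11.2 points, with a median of -10.3, against a median of -5.05 over all 10355 shared regions. With equal list lengths the median over the 5 shared regions left was -18.9, against -0.281 over all shared regions. That median is the value of the Axin2 start-site region, where the DKO replicates were then 50.9 points apart. With a minimum score of 21 the median was 7.68 over the 2 left, against -7.57. The sign of the median at the loci thus depended on the peaks kept. Between the DKO replicates the differences at the 8 regions of the full lists ranged from -28.2 to 27.9 points, with a median of -5.96. The control ranked below both DKO libraries at 4 of the 8 regions, against 51.1% of all shared regions, which is no more than the background. With equal list lengths 5 regions were shared, of which 2 (Myc and the Kdm1a start site) had the control below both DKO libraries (37.8% of all shared regions). The control was also at least 25 points below each DKO library at the Myc and Kdm1a regions, against 12.3% of all shared regions. With equal list lengths it was so at the Kdm1a region, 1 of 5 (7.94% of all shared regions), while Myc lay 23.8 points below the nearer DKO library.

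A wider list of Wnt and stem cell genes was described in the same way. Of its 30 genes, 29 were placed and 22 of these had an annotated start site. A start-site peak was called for 14 in the control, 14 in DKO 1 and 18 in DKO 2 (63.6%, 63.6% and 81.8%), all above the shares over all genes. Of these 22 genes, 11 were called in all 3 libraries, against 36.4% of all genes. Another 3 (Id3, Tcf7l2 and Yap1) were called in both DKO libraries and not the control, against 6.87%. Tert (1 gene) was called in the control alone, against 1.43%. These 4 genes were picked out after their values were seen. TCF7L2 is the TCF factor that carries Wnt output in gut epithelium. The largest start-site rank differences of 1 sign against both DKO libraries were at Ctnnb1, which encodes beta-catenin (11.4 in the control, 82.5 and 47.9 in DKO 1 and DKO 2, which are 34.7 points apart), and at Bmi1, a Polycomb gene (11.4, 52.6 and 47.9). They were followed by Cdca7 (2.96, 14.4 and 19.8) and Lrig1, a negative regulator of ErbB signalling (78.8, 93.8 and 90.8). Each rank is that of the highest peak near a start site in that library. At Bmi1 the control and DKO 1 peaks did not overlap each other, while the DKO 2 peak overlapped both. Over all genes with a start-site peak in every library, the control rank minus the DKO mean had a median of -5.83. The control was below both DKO libraries at 55.7% of these genes, and by at least 25 points at 12.0%, so a lower control rank was common outside the list too. Among the 136 regions of this list, 16 were control-only (11.8%, against 13.0% of all regions) and 26 were called in both DKO libraries only (19.1%, against 16.0%), both near the background.

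Enterocyte genes, which serve absorption and digestion, were described beside them. Of 17 placed genes with a start site, 6 had a start-site peak in the control and 2 in each DKO library (35.3%, 11.8% and 11.8%). Over all genes the shares were 40.4%, 46.4% and 47.9%. With 17 genes the control share was thus close to that of all genes, and the share in each DKO library was below it. Alpi, Fabp2, Myo1a and Sis were called in the control alone, at ranks of 2.96, 58.8, 34.8 and 50.4, and these 4 genes too were named after their values were seen. Control-only start-site peaks were called at 1.43% of all genes and at 0 of the 10 stem and progenitor genes, too few genes to differ from that share. Of the 55 regions of the enterocyte list, 14 were control-only (25.5%, against 13.0% of all regions) and 9 were called in both DKO libraries only (16.4%, against 16.0%). These shares are given at the full list lengths only. With equal list lengths the control-only share of all regions was 20.7%. The difference between the gene sets was not tested, since each rests on the same single control library and on few genes.

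**Figure D4:**
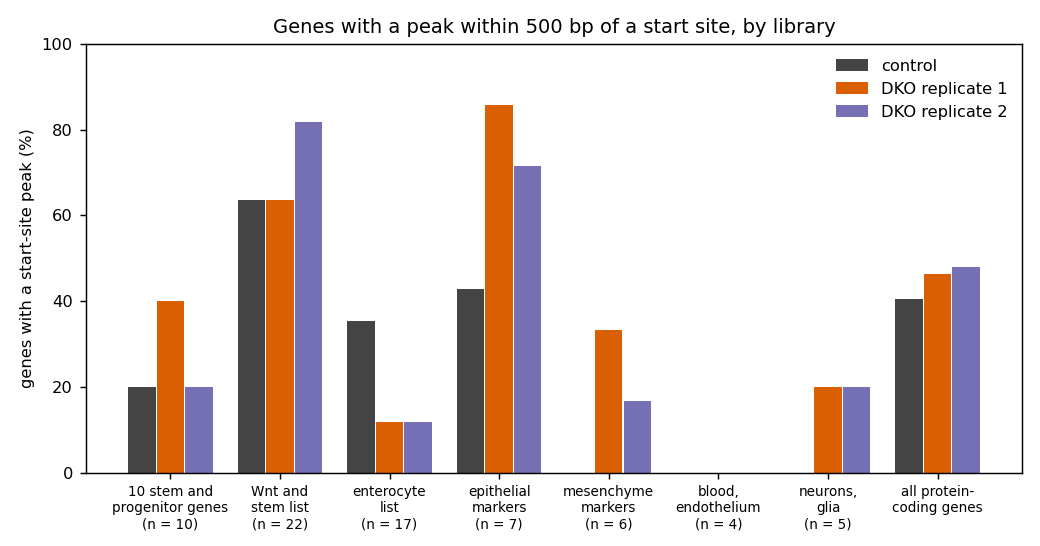
Share of genes (y axis, %) with a peak within 500 bp of an annotated start site, by library (bar colour), for the 10 stem and progenitor genes, the other fixed lists and all protein-coding genes; n is the number of genes with a start site. The 10 genes (2, 4 and 2 called) stand below all genes in each library, and the enterocyte list is the one with a higher control than DKO share.

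With 3 libraries the smallest p an exact permutation of genotype can reach is 0.333, and no test was made. Each difference rests on 1 control library and was read against the gap between the DKO replicates.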

How the data were processed

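For each library the authors deposited the positions of its peaks, in 601 bp windows, with a whole-number score. The deposited score has no stated meaning or scale. Build mm9 and the tools Bowtie2 2.2.6 and MACS 1.4.1 are named in the submitters' processing notes, without settings; thresholds, duplicates and any transposase shift are not given in the sources used here. Depth is unknown.

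Gene positions were at hand for GRCm38.p6. Each gene was shifted by the offset (within 8 Mb) that put most start sites of the surrounding 5 Mb inside a peak, the gene's own start sites left out. The surroundings were widened until the best offset held at least 2 times the runner-up's start sites, and the offset was then read from the nearest 3 or more start sites; this widening was added after the lists were seen. It was needed for Sox9 and Myc, whose offset of -168533 rests on 3 start sites within 15.0 Mb. The other 8 offsets rested on 10 to 46 start sites, against 4 to 14 for the runner-up. Distances carry an error of some 0.2 kb (the middle 50% of the start-site offsets spans up to 224 bp). Strands of Lgr5, Sox9, Myc and Ccnd1 are general knowledge. Printed peak coordinates are as deposited, with 1-based starts. All-gene values used offsets on a 1 Mb grid. In simulated lists with a single shift, 50 of 50 offsets were recovered. Those lists held more start sites on peaks per 5 Mb than were found near Myc, Prom1 or Olfm4. Such placements were therefore not checked by them.

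Peaks overlapping by 1 bp were merged, and ranks were averaged over ties (Python 3.11.15, pandas 2.3.3). Every member is described, with its start-site regions, its highest-ranked regions and the strong single-genotype regions; from the Wnt list, the 4 largest start-site rank differences of 1 sign were named. Members and lists were chosen with earlier results of these data known. Alternatives were equal list lengths, a minimum score, other flanks, offsets, windows, gaps and start-site distances, and leaving out each DKO replicate. For equal list lengths, tied scores at the cut were separated by a single random draw. Calls at the tied score of the cut depend on that draw. Shares carry Wilson 95% intervals, for counting error only.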

Additional observations from a re-analysis of the deposited data

How the results depend on the processing

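No call rests on a test here. Of 68 values recomputed under 12 alternatives, 50 stayed within 1.5 times the main count or, for ranks, within the replicate spread of 5.67 points. Equal list lengths gave 17 DKO replicate 2 peaks and a median control minus DKO rank of -18.9 at the shared regions (-0.281 over all shared regions). That median is the Axin2 start-site value, where the DKO replicates were 50.9 points apart. A score of at least 21 left 6, 10 and 12 peaks in the control and DKO replicates 1 and 2, with 0 and 2 start-site calls in the control and DKO replicate 1, 3 control-only and 5 DKO-only regions, and a median of 7.68 over the 2 shared regions left, the opposite sign (-7.57 over all shared regions). Flanks of 20 kb gave 14 and 16 peaks in the DKO libraries and 3 DKO-only against 5 control-only regions. Flanks of 100 kb gave 27 control peaks and 10 regions in each class, so the order of the classes depended on list length and flank. Counting start-site peaks within 1 kb gave 4 in DKO replicate 2, with no all-gene share given at that distance. Leaving out DKO replicate 1 or 2 gave 12 to 18 DKO-only regions and medians of -5.40 to -4.43. The 10 Mb offset and the omission of regions at other genes' start sites (added after the data were seen) moved no value beyond these limits. For Myc the 10 Mb setting again rested on 3 start sites and gave the same offset, so it was no separate check of that placement. No paired analysis was possible because a single control library stands against 2 DKO libraries. Unknown depth limits every statement on a missing peak.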
